A study of Mus musculus with 6 samples.

Results

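A set of 9 genes of the complement system were followed in RNA from whole mouse ovary, out of 46078 genes in each deposited table. They encode the terminal component C7, the central component C3, the classical pathway components C4b and C2, the alternative pathway protease Cfb, the lectin pathway protease Masp1, and the regulators Serping1, Cd55 and Cd59a. All 9 were found by symbol, each as 1 row with its own Ensembl identifier. They were selected on measured values, namely their levels in the control and treated libraries, so differences between the groups are given as description, without a test. The 46 other complement genes looked at beside them were listed by their role in the pathway.

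The ovaries came from C57BL/6 mice of 8 to 9 weeks, in a control group of 3 libraries and a group of 3 libraries labelled CTX for cyclophosphamide, an alkylating drug used in chemotherapy that damages ovarian follicles. Neither the dose, route and time of treatment nor the stage of the estrous cycle is given in the sources used here. Whether each library is 1 animal is not stated, so the spread between some libraries may be technical. CTX 2 and CTX 3 were close to each other in the cell markers and in C7, as given below. If they are not independent, a pattern seen in both rests on 1 observation, and the SDs and SEs given here do not allow for that. Levels are RPKM, reads scaled by gene length and library depth, and rest on an estimated 15800000 to 22100000 reads per library.

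Complement is a cascade of proteins that tags cells and debris and can perforate membranes. The classical route starts when C1q, carrying the proteases C1r and C1s, binds its target, the lectin route starts when collectins or ficolins bind sugars with the MASP proteases, and the alternative route amplifies both. All routes split C3, and the terminal components C5 to C9 then build the membrane pore. Liver makes most of the proteins in plasma, many other tissues transcribe some of the genes locally, and follicular fluid of the ovary contains complement proteins and their regulators.

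The libraries did not divide by treatment in their summed markers of luteal cells, granulosa cells and oocytes, and this touches every result below. The summed level of 10 luteal cell markers was 7772, 8469 and 4120 RPKM in controls 1, 2 and 3 and 9949, 3160 and 3028 RPKM in CTX 1, 2 and 3. Markers of granulosa cells, the somatic cells of follicles, ran the other way, with sums of 1204, 1052 and 2985 RPKM in control and 694, 2556 and 2469 RPKM in CTX. Oocyte markers summed to 168, 143 and 339 RPKM in control and to 106, 389 and 377 RPKM in CTX. CTX 1 thus had the highest luteal and the lowest granulosa and oocyte sums of the 6 libraries, and control 3 stood nearer to CTX 2 and CTX 3 than to the other controls. Some markers of other cells did divide. Mesothelium is the lining that covers the ovary. Of its 10 markers, 4 (Upk1b, Msln, Muc16 and Krt7) had all CTX libraries below all controls and 0 had them above. Over all 14535 genes tested these shares were 5.5% and 3.32%. The mesothelium list summed to 83.6 to 114 RPKM in control and 60.3 to 94.8 RPKM in CTX. The endothelium and macrophage lists each had 2 of 10 markers wholly below the controls and 0 wholly above. The macrophage marker Cd163, counted here, did not pass the filter. All 10 markers of each of the luteal, granulosa, oocyte and mesothelium lists passed the filter on low values and none was at 0 in all libraries. In bulk tissue, fewer cells of a type and less RNA per cell cannot be told apart.

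Over the 6 libraries the mean level was highest for Serping1 (51.4 RPKM), followed by C2 (14.4), Cd59a (12.3), C3 (8.91), Masp1 (6.55), Cd55 (4.14), C7 (4.13), C4b (2.57) and Cfb (0.627). Serping1 lay above C2 in every library, without overlap of their ranges, and so did C4b above Cfb. The ranges of all other neighbours in this order overlapped. In GENCODE M21 coordinates (mm10), Serping1 lies on chromosome 2 (84765387 to 84775444), as does Cd59a (104095801 to 104115354), and Cd55 on chromosome 1 (130439027 to 130462744). C7 lies on chromosome 15 (4988762 to 5063740) and Masp1 on chromosome 16 (23449417 to 23520815). Chromosome 17 carries C3 (57203970 to 57228136) and, within the major histocompatibility complex, C4b (34728380 to 34743882), Cfb (34856374 to 34862518) and C2 (34862604 to 34898265). Between the highest and the lowest library the level of C7 differed 12.6-fold and that of C3 7.84-fold. The remaining 7 genes differed 1.64-fold (C2) to 3.22-fold (Masp1) between their highest and lowest libraries.

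**Figure D1:**
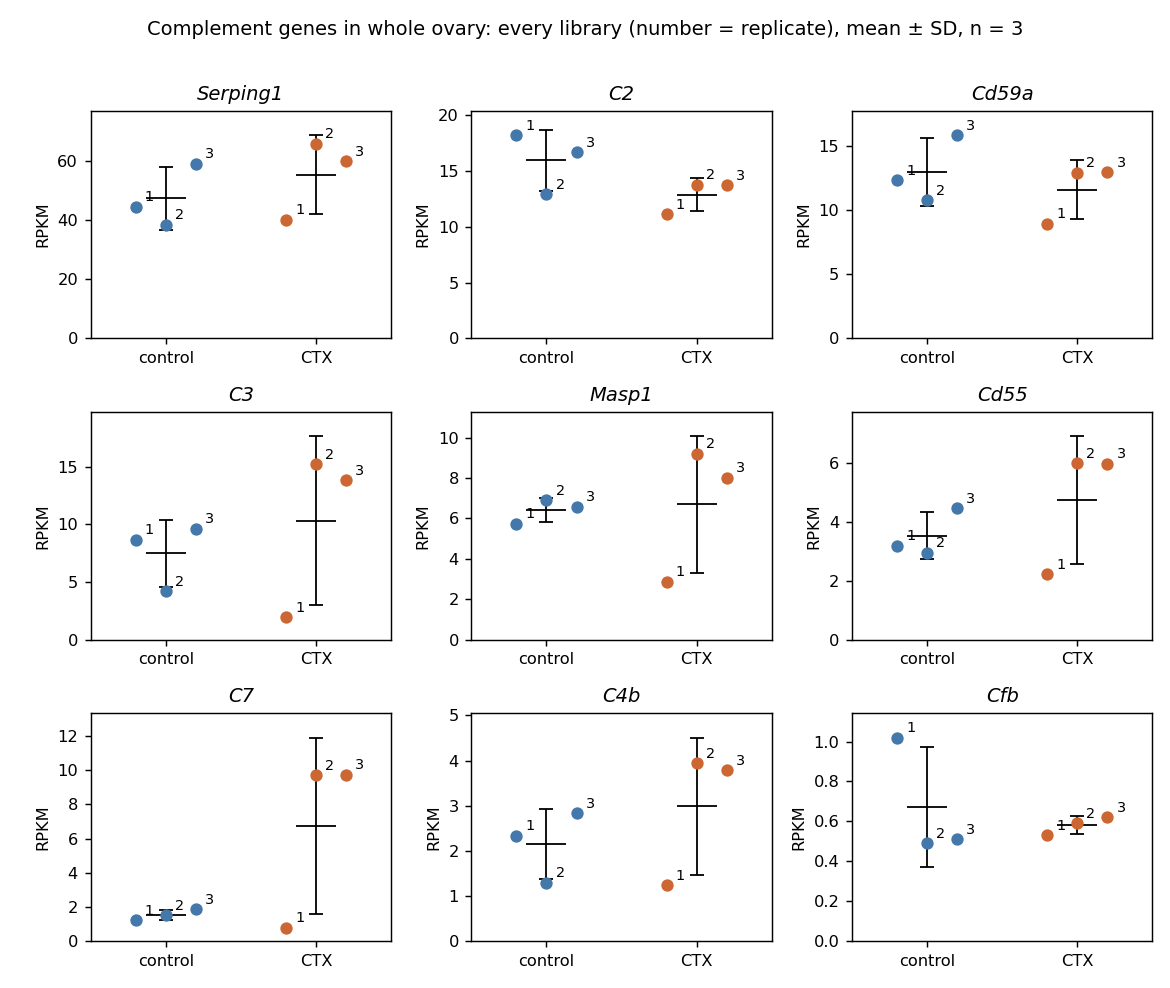
Levels of the 9 complement genes in RPKM (vertical axes, linear, from 0) in the control and CTX libraries; each point is 1 library numbered by replicate, and the bar and whiskers are the mean ± SD (n = 3). CTX 1 is the lowest library for 7 genes, and for C7 CTX 2 and CTX 3 stand at 9.72 and 9.74 RPKM while the controls lie between 1.23 and 1.85.

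C7, the component that anchors the growing pore complex in the membrane, showed the widest difference between the groups. Its levels were 1.23, 1.49 and 1.85 RPKM in controls 1, 2 and 3 and 0.77, 9.72 and 9.74 RPKM in CTX 1, 2 and 3. CTX 2 and CTX 3 were therefore nearly equal and far above every control, CTX 1 was the lowest of all 6, and the groups overlapped. The group means were 1.52 ± 0.311 RPKM in control and 6.74 ± 5.17 RPKM in CTX (mean ± SD over 3 libraries per group, as in all such pairs here), a ratio of 4.43. On the log2(RPKM + 1) scale, which understates changes of low genes, the fitted difference of CTX minus control was 1.23 ± 0.70 (SE). These levels correspond to about 52, 64 and 83 reads in control and 37, 575 and 446 in CTX, so the counts behind CTX 2 and CTX 3 are not small.

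Control 3 was the control with summed granulosa and oocyte markers nearest to those of CTX 2 and CTX 3. CTX 2 had 5.25 times and CTX 3 5.26 times the C7 level of control 3. Of 14535 genes that passed the filter, 34 (0.234%) were at least 5 times as high in both of these libraries as in control 3. Among these 14535, C7 was the only gene (0.00688%) that was at least 5 times as high in both as in the highest of the 3 controls. The filter asks for 1 RPKM in 3 libraries, so it leaves out genes that reach this level only in CTX 2 and CTX 3. The adipocyte marker Lep was left out in this way, with 0.04, 0 and 0.11 RPKM in control and 0.02, 1.34 and 1.45 RPKM in CTX. The limit of 5 was chosen after the values of C7 were seen, and C7 was picked for this contrast. Some markers of steroid-forming cells were also highest in CTX 2 and CTX 3. The summed luteal cell markers ran the other way, at 9949 RPKM in CTX 1 and 3160 and 3028 RPKM in CTX 2 and CTX 3. The granulosa marker Cyp19a1, the aromatase that forms estrogen, had 5.77, 3.96 and 8.51 RPKM in control and 0.53, 32.8 and 33.9 RPKM in CTX, lowest in CTX 1 as C7 was. CTX 2 and CTX 3 had 3.85 and 3.98 times its control 3 level, whereas Inhbb, an inhibin subunit gene of the same list, stood at 255 RPKM in control 3 and at 69.0 and 71.1 RPKM in CTX 2 and CTX 3. Of the 10 granulosa markers, 6 lay above control 3 in both CTX 2 and CTX 3 and 3 (Inha, Inhbb and Hsd17b1) lay below it in both. Cyp17a1, the androgen-forming enzyme of theca cells, had 20.2, 6.78 and 59.9 RPKM in control and 24.1, 239 and 224 RPKM in CTX. That is 4.0 and 3.7 times the control 3 level in CTX 2 and CTX 3. Of the 10 theca and stroma markers, 7 lay above control 3 in both CTX 2 and CTX 3 and 3 lay below it in both, the matrix genes Dcn (0.75 and 0.78 times) and Lum (0.68 and 0.71 times) and the hedgehog target Gli1 (0.86 and 0.81 times). That list summed to 373 to 729 RPKM in control and 383 to 836 RPKM in CTX, with none at 0 in all libraries, and the part of these cells in the C7 difference was not tested.

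**Figure D2:**
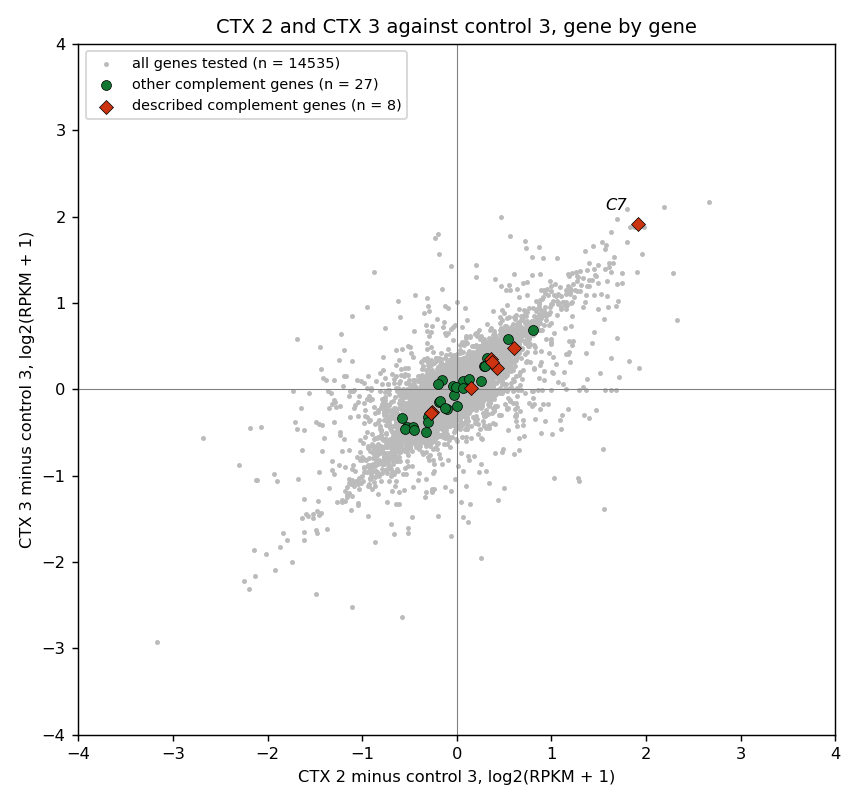
Difference of CTX 2 (horizontal axis) and CTX 3 (vertical axis) from control 3 in log2(RPKM + 1) for each of 14535 genes (grey), with the described complement genes as red diamonds and other complement genes as green circles. C7 lies at 1.91 on both axes, and the other complement genes lie close to the origin by comparison.

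The RefSeq promoter table for GRCm38.p6, the assembly also called mm10, held windows for 4 of the 9 genes (C7, C3, Cd55 and Cd59a), each reaching from 250 bases before the annotated start to 50 bases after it. Windows of the 2 genes that varied most between libraries are shown, C7 at chr15:5063724-5064023 and C3 at chr17:57228087-57228386, both read from the minus strand, 5′ to 3′. Capitals mark matches to any of 6 short motifs searched on both strands.
C7: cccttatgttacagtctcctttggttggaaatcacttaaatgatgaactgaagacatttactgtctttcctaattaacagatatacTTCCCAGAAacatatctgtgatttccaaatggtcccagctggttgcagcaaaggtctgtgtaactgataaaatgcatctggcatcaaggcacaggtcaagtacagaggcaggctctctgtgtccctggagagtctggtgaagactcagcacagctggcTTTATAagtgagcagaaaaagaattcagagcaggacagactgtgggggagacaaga
C3: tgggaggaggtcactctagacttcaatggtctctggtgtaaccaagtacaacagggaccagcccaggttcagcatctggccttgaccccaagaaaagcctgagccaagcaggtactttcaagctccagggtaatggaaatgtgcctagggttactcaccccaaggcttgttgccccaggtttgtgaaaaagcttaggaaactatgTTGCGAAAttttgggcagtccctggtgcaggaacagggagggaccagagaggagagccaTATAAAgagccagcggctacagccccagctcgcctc

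The motifs were the interferon-stimulated response element (GAAA, any 2 bases, GAAA), the interferon gamma-activated site (TTCNNNGAA), the estrogen response element (GGTCA, any 3 bases, TGACC), the SF-1 site (CAAGGTCA), a C/EBP site (TTGCNNAA) and the TATA box (TATAAA), where N is any base. The C7 window held an interferon gamma-activated site match (TTCCCAGAA), a motif present in 8.29% of all 32817 promoter windows, and a TATA box match on the opposite strand (TTTATA). The C3 window held a C/EBP match (TTGCGAAA), a motif present in 10.8% of windows, and a TATA box match (TATAAA), present in 13.6% on either strand. The C7 TATA box match began 6 bases before the annotated start and the C3 one 14 bases after it. Cd59a had a match to the interferon-stimulated response element (GAAAGGGAAA), found in 3.43% of windows, and Cd55 had none of the 6. No window of the 4 held the estrogen response element (0.0701% of all windows) or the SF-1 site (1.56%). A match describes the letters and shows no binding.

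C3, which all routes of activation converge on, had 8.68, 4.20 and 9.62 RPKM in control and 1.94, 15.2 and 13.8 RPKM in CTX. CTX 1 lay below all controls and CTX 2 and CTX 3 above all of them, so the treated libraries enclosed the controls. The means were 7.50 ± 2.90 and 10.3 ± 7.29 RPKM, and the fitted log2 difference was 0.13 ± 0.69 (SE). Its direction turned when control 2 (−0.19), CTX 2 (−0.30) or CTX 3 (−0.23) was left out, and without CTX 1 it was 0.93. Against control 3 alone, CTX 2 had 1.58 times and CTX 3 1.44 times the C3 level.

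Of the components that form the classical C3 convertase, C4b ordered the libraries as C3 did and C2 did not. C4b, the part that attaches to the target surface, had 2.33, 1.29 and 2.83 RPKM in control and 1.23, 3.94 and 3.79 RPKM in CTX, with CTX 1 and control 2 close together at the bottom. C2, the protease part, had 18.2, 12.9 and 16.7 RPKM in control and 11.1, 13.8 and 13.7 RPKM in CTX. For C2 all CTX libraries lay below controls 1 and 3, and only control 2 fell within the CTX range. The fitted log2 differences were 0.28 ± 0.36 for C4b and −0.28 ± 0.16 for C2. C4b has a close copy, C4a, with 0.14 to 0.42 RPKM, and how reads of the pair were assigned is not given in the sources used here.

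Cfb, the protease of the alternative convertase and the neighbour of C2 on chromosome 17, was near the limit of detection. It had 1.02, 0.49 and 0.51 RPKM in control and 0.53, 0.59 and 0.62 RPKM in CTX, about 22 to 46 reads per library. It was the only one of the 9 that did not pass the filter on low values (RPKM of 1 or more in 3 or more libraries), and without that filter its log2 difference was −0.07 ± 0.18 (SE). All CTX libraries lay between controls 3 and 1. Gm20547, an annotated gene that spans both, shares 2246 of the 2825 exonic bases of Cfb and 1656 of the 3872 of C2 on the same strand and is listed at 0 in all libraries, so the C2 and Cfb values depend on how shared reads were counted. C2 also shares 161 bases with Zbtb12 on the opposite strand.

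Masp1, a protease carried by the sugar-binding starters of the lectin route, had 5.75, 6.89 and 6.58 RPKM in control and 2.86, 9.21 and 8.01 RPKM in CTX. As for C3, CTX 1 lay below and CTX 2 and CTX 3 above all controls, which themselves differed little. The means were 6.41 ± 0.589 and 6.69 ± 3.37 RPKM, with a log2 difference of −0.06 ± 0.37 (SE) that turned to 0.38 without CTX 1.

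The 3 regulators differed 1.71-fold (Serping1) to 2.70-fold (Cd55) between their highest and lowest libraries. Serping1, the C1 inhibitor that inactivates C1r, C1s and the MASP proteases, had 44.6, 38.5 and 59.2 RPKM in control and 40.3, 65.9 and 60.1 RPKM in CTX. Control 3 and CTX 3 were close, and CTX 1 lay among the controls. Cd55, the decay-accelerating factor that takes C3 convertases apart on the cell surface, had 3.20, 2.96 and 4.47 RPKM in control and 2.23, 6.01 and 5.99 RPKM in CTX, with CTX 2 and CTX 3 above all controls and CTX 1 below. Cd59a, the membrane protein that blocks assembly of the pore after C7 has joined, had 12.3, 10.8 and 15.9 RPKM in control and 8.95, 12.9 and 13.0 RPKM in CTX. Control 3 was its highest library, so Cd59a did not share the high values of C7 in CTX 2 and CTX 3.

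The log2 differences of the regulators were 0.21 ± 0.24 (SE) for Serping1, 0.27 ± 0.33 for Cd55 and −0.15 ± 0.20 for Cd59a. Without CTX 1 they were 0.42, 0.64 and 0.01, and the last of these had turned. Their paralogs were low, with 1.14 to 1.85 RPKM for Cd59b and at most 0.21 RPKM for Cd55b. Reads that match both copies could have been assigned to either.

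In limma, which was fitted across all 14535 genes, no gene passed a Benjamini-Hochberg adjusted p of 0.05 (0 higher, 0 lower, 0% of genes in each direction, smallest adjusted p 0.411). At an unadjusted p under 0.05 there were 168 higher and 333 lower genes. None of the 8 members above the filter had groups that did not overlap, while over all genes 3.32% had all CTX libraries above all controls and 5.5% had them below. In 6 of the 8 (C7, C3, C4b, Masp1, Serping1 and Cd55) CTX 2 and CTX 3 both lay above all controls, as did 22.8% of all genes. CTX 1 was the lowest library in 7 of the 8, the exception being Serping1, and in 41.9% of all genes. These counts rest on the contrast that chose the members and support nothing by themselves.

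Left out of the fit, CTX 1 changed the calls. Without it limma called 2 genes higher and 3 lower, and C7 was among the higher ones at a log2 difference of 2.10. That fit leaves out the library where C7 was lowest and uses the contrast that chose it, so the call supports nothing about C7. With all libraries C7 did not pass.

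**Figure D3:**
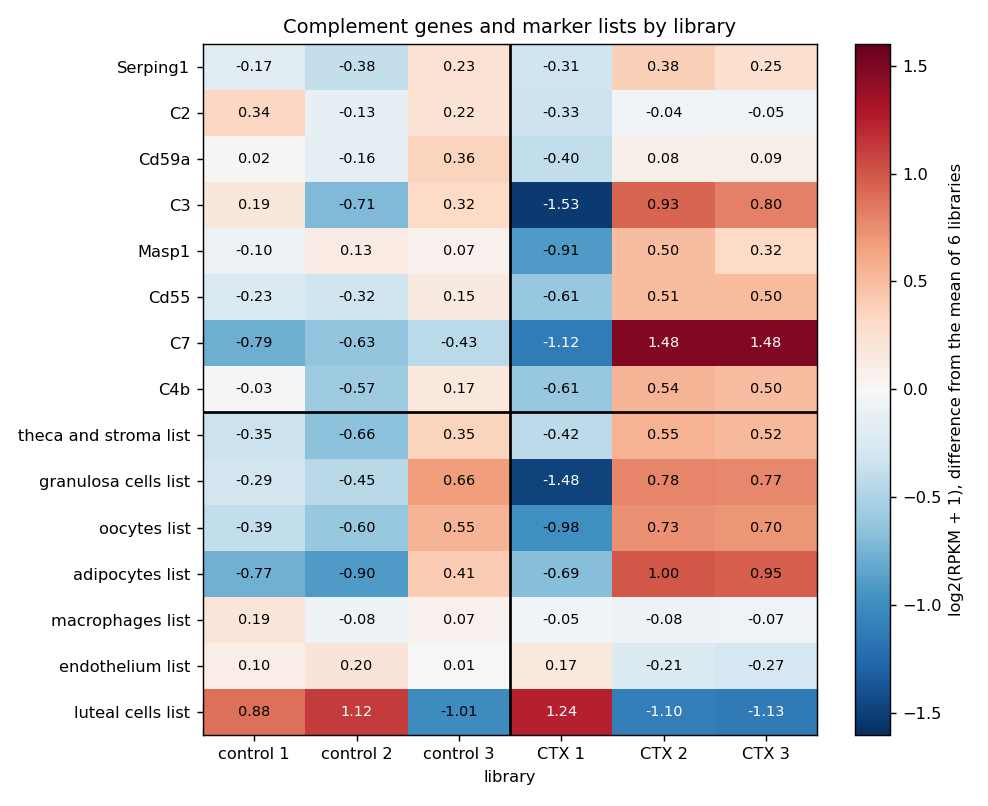
Each library's difference from the mean of all 6 in log2(RPKM + 1), for the 8 complement genes above the filter (upper rows) and for the mean of marker lists of 10 genes (lower rows). Red is above and blue below the mean; C7 stands at 1.48 in CTX 2 and CTX 3 and below 0 in control 3, where the granulosa, oocyte and theca lists stand above 0.

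Among themselves, most of the genes varied in parallel over the 6 libraries. Pearson correlations of log2(RPKM + 1) between C3, C4b, Cd55 and Serping1 were 0.871 to 0.959, and C7 correlated with Cd55 at 0.927 and with C4b at 0.858. C2 stood apart, with −0.035 against C7, 0.269 against Cd55 and 0.741 against Cd59a. These are descriptions over 6 libraries that fall into clusters by cell markers and share their depth, and they carry no test.

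Genes with the profile most like a member came from many functions. For C7 they were Skiv2l2, a helicase of nuclear RNA decay (correlation 0.9996), Srbd1 (0.9985) and Gm15790 (0.9985). Skiv2l2 spanned only 21.4 to 27.5 RPKM, so a like order of libraries does not mean a like size of difference. For C3 the closest was Mavs, an adaptor of antiviral signalling (0.9993), for Cd55 Ap3b1, an adaptor of vesicle transport (0.9998), for Cd59a Cav1, the caveolin of membrane pits (0.9997), and for Serping1 Pecr, a peroxisomal reductase (0.9991). Each is the top of 14535 genes compared over 6 libraries.

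The other complement genes showed which parts of the system the ovary transcribed. Of 46, 27 passed the filter, and 0 of them were called higher and 0 lower by limma. There were 11 positive and 16 negative log2 differences, with a median of −0.07, against 48.8% positive and a median of −0.01 over all genes. At an unadjusted p under 0.05 there were 0 higher and 2 lower, C1s1 and Vtn.

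The starter complex of the classical route was abundant and did not follow C7 or C3. The C1q chain genes C1qa, C1qb and C1qc, made mainly by macrophages, had 62.6, 80.6 and 36.9 RPKM in CTX 1, above their levels in all other libraries, and in CTX 2 and CTX 3 lay below all controls. Macrophage markers other than complement summed to 245 to 399 RPKM in control and 257 to 351 RPKM in CTX, sums in which Lyz2 weighs most. Single markers differed. Aif1 alone of the list was highest in CTX 1 (4.79 RPKM), as the C1q genes were. Csf1r, Cd14, Mrc1, Cd163 and Mertk were lowest there (7.54, 1.72, 3.54, 0.45 and 5.76 RPKM). Of the 10 markers 0 were at 0 in all libraries, and their part was not tested. C1s1, the C1s protease, had 90.0, 63.5 and 83.1 RPKM in control and 46.3, 56.5 and 60.4 RPKM in CTX. All CTX libraries lay below all controls, and the log2 difference was −0.52 ± 0.18 (SE) with a limma adjusted p of 1 (unadjusted 0.0238). Its partner C1ra had 34.2, 25.7 and 36.8 RPKM in control and 18.5, 26.6 and 26.2 RPKM in CTX, with −0.42 ± 0.20 and an adjusted p of 1.

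In the lectin route the collectin gene Colec11 led with 16.1 ± 2.42 RPKM in control and 13.0 ± 5.55 in CTX, while Mbl2 had 2.06 ± 0.972 and 2.23 ± 0.848. The ficolin gene Fcna had 1.33, 1.10 and 1.52 RPKM in control and 0.84, 0.75 and 0.86 RPKM in CTX, so that its groups did not overlap (log2 difference −0.35 ± 0.15, limma adjusted p 1). Masp2, Mbl1, Colec10 and Fcnb stayed at or below 0.26 RPKM in every library.

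In the alternative route, Cfd (adipsin, the protease that activates factor B) had 1.63, 0.07 and 90.8 RPKM in control and 0.48, 109 and 97.1 RPKM in CTX. Control 3 shared its high level with CTX 2 and CTX 3, unlike for C7, and the log2 difference was 1.98 ± 2.25 (SE). Of 10 adipocyte markers, 8 had CTX 2 and CTX 3 both above all controls, as did 22.8% of all genes tested. Pnpla2 and Lipe were instead highest in CTX 1. Lep was unlike Cfd in control 3, with 0.11 RPKM there against 1.34 and 1.45 RPKM in CTX 2 and CTX 3. Some others had profiles close to that of Cfd. Adipoq, the adiponectin gene, had 0.27, 0 and 13.3 RPKM in control and 0.08, 17.3 and 15.5 RPKM in CTX. Retn, the resistin gene, had 0.16, 0 and 5.36 RPKM in control and 0.07, 7.79 and 8.00 RPKM in CTX, and Cidec, a lipid droplet protein gene, was listed at 0, 0 and 3.98 RPKM against 0.09, 8.15 and 9.18 RPKM. All 10 adipocyte markers summed to 56.3 to 90.9 RPKM in control and 73.4 to 131 RPKM in CTX. Pnpla2 and Lpl, also used by other cells, had the highest means over the 6 libraries (26.7 and 14.8 RPKM). In CTX 2 and CTX 3 Plin1 (22.8 and 23.2 RPKM) lay above Lpl (18.6 and 21.1 RPKM). Lipe lay above Lpl in controls 1 and 2 and in CTX 1. The part of these markers was not tested. Cfp, the convertase stabilizer properdin, was even across the libraries at 18.0 to 23.7 RPKM.

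In the terminal route, no gene above the filter other than C7 had CTX 2 and CTX 3 both above all controls. C8g had 2.73 to 4.96 RPKM and Hc, the gene of C5, 0.75 to 1.64 RPKM. C6, C8a, C8b and C9, whose products join C7 in the pore, did not pass the filter, and none exceeded 0.58 RPKM in any library.

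Among the soluble regulators, Clu (clusterin, which keeps pore complexes soluble) stood at 309 ± 13.1 RPKM in the controls against 295 ± 17.6 with CTX. Vtn, vitronectin, had 1.36, 1.37 and 1.32 RPKM in control and 0.95, 0.55 and 0.84 RPKM in CTX, without overlap (−0.41 ± 0.16, limma adjusted p 1). Of the membrane regulators, Cd46 had 1.47 ± 0.0400 and 1.04 ± 0.334 RPKM, also without overlap. Thus 4 of the 27 genes (C1s1, Fcna, Vtn and Cd46) lay wholly below the controls, where 5.5% of all genes did, and 1 (C1qbp) wholly above, where 3.32% did. The 4 mesothelium markers named earlier lay below in the same way. So did the endothelium markers Tie1 and Tek, the macrophage markers Csf1r and Cd163, the pericyte marker Pdgfrb and the granulosa marker Inhbb. Wholly above the controls lay Insl3 of the theca list and Alb and Hp of the hepatocyte list. Alb did so at the floor, with 0 RPKM in all controls and 0.02, 0.11 and 0.10 RPKM in CTX. Alb and Cd163 did not pass the filter, so the shares of all genes tested do not apply to them. The part of these cells was not tested.

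Susd4 and Csmd1, membrane regulators with complement control domains, had library profiles like that of C7 on a smaller scale. Susd4 had 2.78, 3.81 and 5.33 RPKM in control and 2.01, 10.1 and 9.21 RPKM in CTX. Csmd1 had 0.98, 0.78 and 1.35 RPKM in control and 0.77, 2.43 and 2.52 RPKM in CTX. In both, CTX 2 and CTX 3 exceeded every control and CTX 1 was lowest, at log2 differences of 0.52 ± 0.52 and 0.46 ± 0.30 (SE, limma adjusted p 1 each). Against control 3, CTX 2 had 1.89 times the Susd4 level and 1.80 times the Csmd1 level.

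Of the 7 receptor genes above the filter, 4 had positive and 3 negative log2 differences. C3ar1, the receptor of C3a, stood at 3.84 ± 0.434 RPKM in the controls against 4.07 ± 0.388 with CTX. The values of C5ar1, a receptor of C5a, were 2.29 ± 0.688 and 2.34 ± 0.50 RPKM. Cd93, first described as a C1q receptor and found on endothelium, had 24.3, 24.5 and 15.4 RPKM in control and 20.2, 14.0 and 13.1 RPKM in CTX. C1qbp, a mitochondrial protein that binds C1q, had 43.0 ± 2.25 and 49.9 ± 6.61 RPKM (log2 difference 0.21 ± 0.13, limma adjusted p 1).

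**Figure D4:**
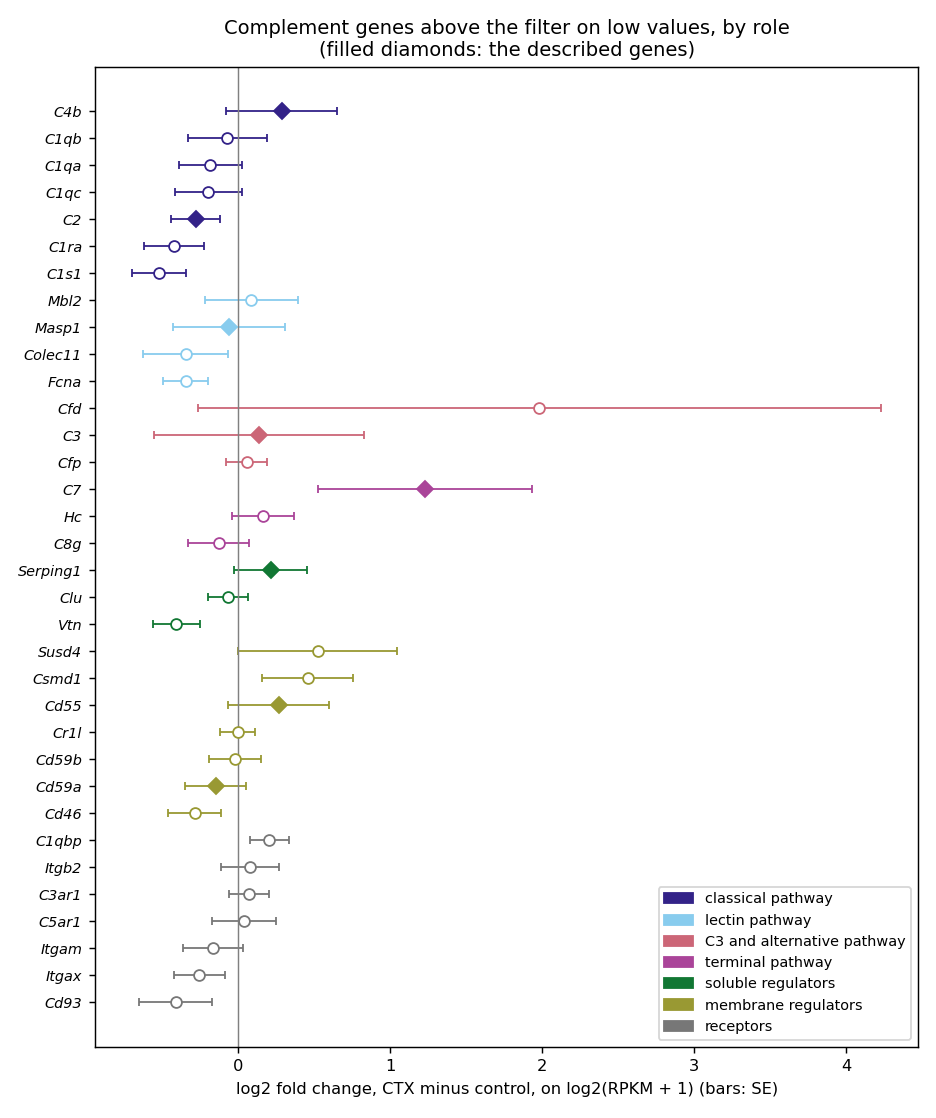
Fitted log2 difference of CTX minus control in log2(RPKM + 1) (horizontal axis) for 34 of the 35 complement genes that passed the filter, coloured by role, with the standard error as bars and the described genes as filled diamonds. C7 is at 1.23 and Cfd at 1.98, the latter with a standard error of 2.25, and C1s1 is the lowest at −0.52.

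Defining liver markers were at or near 0. Of 10 hepatocyte markers, Ttr and Fgb were at 0 in all libraries, Alb did not exceed 0.11 RPKM, and 3 passed the filter (Apoa1, Hp and Trf). The list summed to 19.8 to 36.4 RPKM in control and 26.5 to 55.5 RPKM in CTX. Apoa1, an apolipoprotein gene, had 8.79, 7.75 and 24.6 RPKM in control and 9.01, 41.7 and 33.5 RPKM in CTX. Hp, the haptoglobin gene, had 6.92, 5.68 and 5.19 RPKM in control and 11.4, 7.52 and 9.01 RPKM in CTX, with all CTX libraries above all controls.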

How the data were processed

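RNA from whole ovaries was profiled in 3 control and 3 CTX libraries. Per the labels' protocols, frozen tissue was extracted with Trizol and made into Illumina TruSeq libraries from 1 µg of total RNA. Bowtie 0.12.2 and mm10 are named in the submitters' processing notes, while the counter, annotation, filters and use of strand are not stated there. The authors' deposited values, with 2 decimals and no unit in the headers, behave as RPKM: in genes up to 1000 exonic bases long, 97.7 to 98.0% of values up to 15 reads came within 0.2 of whole reads for 1 depth per library, the estimated depth. At double that depth only 0.4 to 0.9% of the whole values were odd, against 60.5 to 63.6% at the depth used. Read numbers of single genes are approximate and no counting intervals are given.

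Exon lengths and positions came from GENCODE M21, matched by 45143 identifiers (98.0%), and 30 damaged symbols were restored. The filter (RPKM of 1 or more in 3 or more libraries) kept 14535 genes. CTX was compared with control on log2(RPKM + 1) in limma 3.58.1 (R 4.3.3), two-sided, with moderated variances and a mean-variance trend, with calls at an adjusted p (Benjamini-Hochberg) below 0.05. The fit was also run on simulated data. Genes varied independently there, so that run does not check the fit under the differences in cell markers seen here. The members, lists, motifs and tests were chosen with earlier results of these data known. All 9 members are named; of the other complement genes, any that passed the test or otherwise those above the filter, with low ones given by their limits; of marker lists any of the 2 most abundant (Dcn, Cyp17a1, Apoa1, Hp, Pnpla2, Lpl, Nfkbia and Cebpb), while all other markers were named after their values were seen; and for members the closest of 3 genes by correlation. For 1 complement gene, counted in its list, values are not reported here. The 14 alternatives were scaling, filter, pseudocount, trend, a replicate block and each library left out.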

Additional observations from a re-analysis of the deposited data

How the results depend on the processing

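The count of genes called by limma was 0 higher and 0 lower with all 6 libraries, and so it was under trimmed-mean scaling, quantile normalization, a minimum mean RPKM of 5, a pseudocount of 0.1 or 0.5, and no variance trend. Without a filter on low values 4 genes were higher and 13 lower, none of them a complement gene. Apart from Slc27a6 (−1.05), their log2 differences lay between −0.36 and 0.08, with standard errors of 0.0093 or less. The cause of these calls was not tested. Leaving out each library in turn gave 0 to 2 genes higher and 0 to 3 lower, and 0 to 1 complement genes higher and 0 lower, where every call came without CTX 1 and the complement gene was C7. With the replicate number as a block, limma called 0 genes higher and 0 lower, among all genes and in the complement list. In that fit the limma p before adjustment fell below 0.05 for 456 genes. Same-numbered libraries correlated at 0.401, −0.54 and 0.598 for replicates 1, 2 and 3. Controls 1 and 3 correlated best with the CTX library of their own number, and control 2 with CTX 1. Libraries also differed in cell markers within each group, so these correlations cannot decide whether the numbers pair the libraries. The directions of C7, C4b, C2, Serping1 and Cd55 were kept under all alternatives run, with C7 between 0.79 and 2.10. Those of C3, Masp1 and Cd59a turned without single libraries. The median of the complement list moved between −0.09 and 0.02. Depth limits chiefly Cfb, at 22 to 46 reads.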

Other observations

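The terminal gene C6, which lies on chromosome 15 (4727175 to 4814967) not far from C7 (4988762 to 5063740), stayed far below the filter but ordered the libraries in a similar way. Its levels were 0.11, 0.03 and 0.04 RPKM in control and 0.03, 0.27 and 0.23 RPKM in CTX (replicates 1, 2 and 3). These values stand for about 6, 2 and 2 reads in control and 2, 21 and 14 in CTX, so the difference rests on few reads, and it was singled out after its values were seen.

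Genes of the interferon and acute phase response had no common profile over the libraries. In 4 of 16 (Irf1, Nfkbia, Lcn2 and Orm1) CTX 2 and CTX 3 lay above all controls, as they did in 22.8% of all genes tested. Lcn2 did not pass the filter. In Gbp2, Stat3 and Saa3 both libraries lay below all controls, as they did in 17.0% of all genes tested. For Gbp2 CTX 1 did so too. Irf1, a transcription factor gene of the interferon response, had 13.2, 12.3 and 14.3 RPKM in control and 9.36, 15.9 and 14.8 RPKM in CTX, which is the order of the libraries for C3. Nfkbia, an inhibitor of NF-kappa-B, had 26.6, 25.9 and 35.6 RPKM in control and 26.4, 40.1 and 38.2 RPKM in CTX. The acute phase genes Lcn2 (0.31, 0.19 and 0.43 RPKM in control, 0.19, 1.08 and 0.76 RPKM in CTX) and Orm1 (0.08, 0.08 and 1.0 RPKM in control, 0.14, 1.56 and 1.97 RPKM in CTX) were low. Saa3, another acute phase gene, ran the other way with 36.0, 11.6 and 2.92 RPKM in control and 69.0, 2.03 and 1.66 RPKM in CTX. The transcription factor gene Cebpb had 33.95, 28.6 and 29.7 RPKM in control and 39.0, 33.8 and 17.0 RPKM in CTX. The 16 genes summed to 183 to 215 RPKM in control and 163 to 248 RPKM in CTX, and their part in the complement levels was not tested.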
